A study of Mus musculus with 87 samples.

Results

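The genes described here carry out mitosis. They encode the cyclins and kinases that start it, the kinetochore and spindle that move the chromosomes, the proteins that fold and separate chromosomes, and the ring that divides the cell. The members were chosen by name from a list of 51 gene symbols. Of these, 50 were found among the 22707 protein-coding genes of the deposited table. The remaining name, Ska3, was not found as a symbol. RefSeq gives F630043A04Rik as its synonym, and that gene is described apart from the 50.

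A resting adult liver holds very few dividing hepatocytes, and removal of part of it brings the remaining cells back into the cell cycle in a fairly synchronous way. Genes of mitosis are known to be transcribed late in that cycle, in G2 and M phase, after the genes of DNA replication. Many of them are held silent in resting cells by the DREAM complex and switched on by B-Myb and FoxM1, through promoter elements named the CHR (cell cycle genes homology region) and the NF-Y box. The anaphase-promoting complex then destroys the cyclins and securin at the end of mitosis, so the transcripts are also needed anew in each cycle.

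RNA-Seq of poly(A) RNA had been done on individual livers of male C57BL/6 mice, aged 12 to 14 weeks at surgery and entrained to light and to feeding in the dark. Values for 80 livers in 19 groups were used. Partial hepatectomy (PH, groups named X) or sham surgery (laparotomy alone, groups named S) was done under isoflurane at Zeitgeber time 2 (ZT2), and mice were killed in groups of 3. The groups after PH were X1, X4, X10, X20, X28, X36, X44, X48 and X72, named for the hours since surgery, and X1W and X4W at 1 week and 4 weeks. They held 6, 3, 6, 6, 3, 6, 3, 5, 3, 3 and 2 livers in that order. The sham groups S1, S4, S10, S20 and S48 held 6, 5, 3, 3 and 3 livers. Mice without surgery gave 9 livers at the time of surgery (C0), 3 at the hour of the 4-h groups (C4) and 2 matched to the 4-week group (C4W). Livers were collected in 3 separate periods. By the study's supplement, X28, X44, X48, X72, X1W and S48 came from the first period, S10, S20, C4W and X4W from the second and C4 from the third. C0 came from all 3 periods, and the groups X1, S1, X4, S4, X10, X20 and X36 were split between the first and the second. For X4 this holds for the full set of samples. Only replicates 4 to 6 of X4 were used, and these may all be of 1 period. Which replicate number belongs to which period is not given in the sources used here, and the model has no term for it. Samples labelled as 60 h post-PH, with 3 of X4 and 1 of X4W, were not analysed here. All mice were of 1 strain, and the labels give no genetic change for any group. Levels are in RPKM, that is, reads scaled to the length of the transcript and to the library's total. Depth was estimated at 12.2 to 49.0 M reads per library (M, mega), with a median of 26.7 M reads. At the median depth, 1 read on a transcript of 2 kb is worth 0.0187 RPKM, so that values below about 0.1 RPKM rest on few reads.

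Differences are on the log2(RPKM + 0.25) scale from limma, in 1 model of all 19 groups, with p adjusted by the Benjamini-Hochberg method over all 15396 genes tested. That scale understates the change of a gene near 0. Genes were called higher or lower where the log2 difference was beyond 0.5 and its adjusted p under 0.05. All 50 genes of the list passed the filter on low values, many of them only through the livers from 36 to 72 h post-PH.

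Promoters of these genes are shown first, since the CHR and the NF-Y box are the sequence features that the family is known for. RefSeq windows of 250 bases before to 50 bases after the start of transcription (GRCm38.p6) were matched by symbol to 41 of the 51 names, in 43 windows, since some genes have several starts. No window was matched for Aurkb, Ccna2, Cdc25c, Foxm1, Incenp, Kif20a, Ska1, Smc4, Spc24 and Tpx2. The CHR was searched as TTTGAA and the NF-Y box as CCAAT, both on either strand. The 6 promoters below, cut to the last 100 bases before the start and the first 50 after it, are those of genes whose levels are described further on. Capitals mark both motifs.
Cdc20, chr4:118437294-118437443, minus strand: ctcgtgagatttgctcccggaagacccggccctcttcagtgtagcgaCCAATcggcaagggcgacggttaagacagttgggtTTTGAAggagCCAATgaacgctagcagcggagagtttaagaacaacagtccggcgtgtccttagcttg
Ccnb2, chr9:70421505-70421654, minus strand: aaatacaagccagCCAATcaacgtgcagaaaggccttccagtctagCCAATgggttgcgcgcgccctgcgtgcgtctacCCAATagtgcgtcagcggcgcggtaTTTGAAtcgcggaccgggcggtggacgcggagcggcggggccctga
Plk1, chr7:122159335-122159484, plus strand: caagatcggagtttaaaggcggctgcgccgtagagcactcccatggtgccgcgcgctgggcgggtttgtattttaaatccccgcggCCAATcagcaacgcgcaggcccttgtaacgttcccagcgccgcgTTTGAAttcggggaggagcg
Ccnb1, chr13:100786437-100786586, minus strand: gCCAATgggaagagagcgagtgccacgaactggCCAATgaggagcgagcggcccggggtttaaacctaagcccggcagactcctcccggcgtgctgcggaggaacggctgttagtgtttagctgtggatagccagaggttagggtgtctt
Ncapg2, chr12:116405336-116405485, plus strand: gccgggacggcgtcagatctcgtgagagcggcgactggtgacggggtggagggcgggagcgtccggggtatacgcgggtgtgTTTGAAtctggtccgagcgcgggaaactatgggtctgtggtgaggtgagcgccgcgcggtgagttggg
Pttg1, chr11:43425932-43426081, minus strand: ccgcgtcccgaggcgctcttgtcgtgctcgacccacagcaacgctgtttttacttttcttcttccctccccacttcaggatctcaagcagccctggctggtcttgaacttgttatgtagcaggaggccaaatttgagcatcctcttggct

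Cdc20, Ccnb2 and Plk1 hold both motifs, Ccnb1 holds only the NF-Y box, Ncapg2 only the CHR, and Pttg1 neither in its full window. Over the whole list, the CHR was found in 32 of the 43 windows (74.4%), against 17.9% of all 32851 windows of the reference and 16.0% of those of protein-coding genes. The NF-Y box was found in 31 windows (72.1%), against 37.4% of all windows. Both were present in 27 windows (62.8%), against 6.95%. The matches of the CHR lay mostly near the start of transcription, with 28 of the 30 genes that hold it having a match between 100 bases before and 50 bases after the start. The median position of its first base was 9 bases before the start, and that of the NF-Y box 68 bases before. Of the 41 names, 7 held neither motif, namely Birc5, Mad2l1, Mybl2, Ncaph, Nuf2, Nusap1 and Pttg1. These are matches of letters in a window and not binding sites.

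A search for 4 spellings of the E2F site, typical of genes of DNA replication (the letters TTTCCCGC, then TTTGGCGC, then TTTGCCGC and last TTTCGCGC, on either strand), found it in 4 of the 43 windows (9.30%), against 2.26% of all windows. Those genes were Cdk1 and the condensin genes Ncapd2, Ncapg and Ncapg2. A list of 40 genes of DNA replication, used for comparison, had 37 windows, of which 14 (37.8%) held an E2F site and 4 (10.8%) held the CHR. The NF-Y box was in 20 of them (54.1%), and both the CHR and the NF-Y box in 3 (8.11%). A list of 80 other mitotic genes, described further on, had 77 windows. Of these, 46.8% held the CHR, 64.9% the NF-Y box and 32.5% both. Spellings close to the CHR (TTTAAA or else TTCGAA or else CTTGAA) were in 37.2% of the windows of the mitotic genes and in 25.4% of all windows. Birc5, Ccnb1 and Pttg1, which lack the CHR as searched, were among the genes with such a spelling.

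In the resting liver 46 of the 50 genes had a mean under 1 RPKM, the others being Pttg1, Spc24, Smc4 and Cenpa. Most of the list rose between 28 and 44 h post-PH, and Pttg1 did not. The summed level of the 50 genes was between 20.6 and 37.9 RPKM in the 9 C0 livers, with a median of 23.97 RPKM. It was 72.5, 75.4 and 31.4 RPKM in the 3 X28 livers and between 143 and 358 RPKM in the 6 X36 livers. It reached 870, 647 and 537 RPKM in the X44 livers and 455, 602, 726, 906 and 638 RPKM in the X48 livers. By 72 h it was down to 246, 414 and 383 RPKM, and at 1 week to 68.0, 43.8 and 82.3 RPKM. The X36, X44, X48, X72 and X1W livers all lay above the 9 C0 livers in this sum, and the third X28 liver lay within their range. Pttg1 and Spc24, with means of 10.2 and 5.00 RPKM, made up a large part of the mean C0 sum of 25.5 RPKM. Both were lower in X28, at means of 6.48 and 2.63 RPKM. In bulk liver, a change in the number of cycling cells and a change in RNA per cell cannot be told apart.

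**Figure D1:**
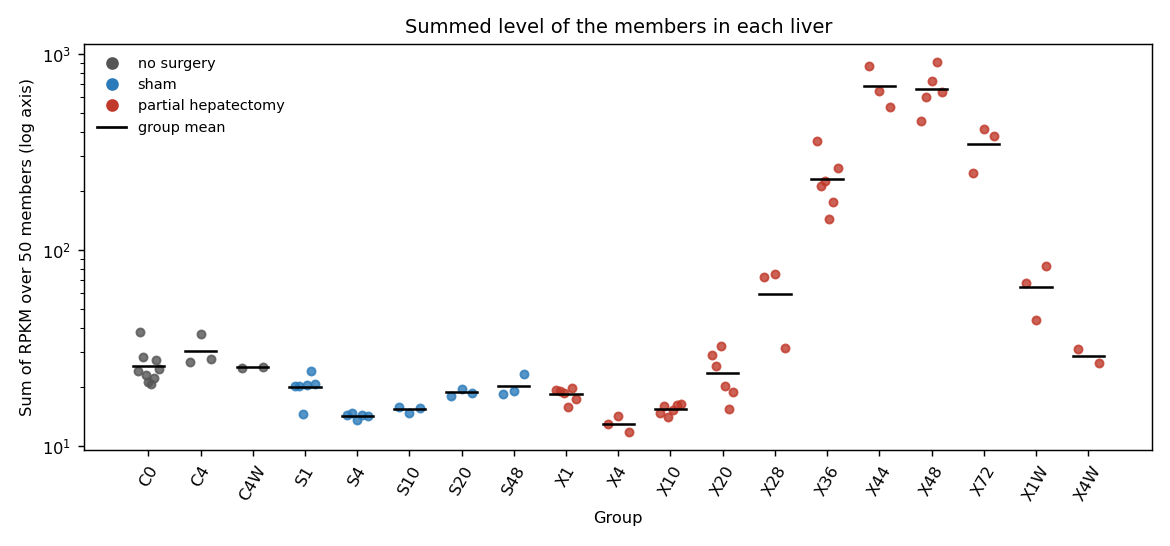
Sum of RPKM over the 50 genes in each liver (log axis), by group, with 1 point per liver and a bar at the group mean. The livers without surgery and after sham surgery stay at or below 37.9 RPKM, and the X44 and X48 livers lie between 455 and 906 RPKM. Pttg1 and Spc24 hold a large part of the sum in livers without surgery.

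Against C0, 45 of the 50 genes were called higher at 28 h, where 13.6% of all genes tested were. With a pseudocount of 1 in place of 0.25, the count at 28 h was 29. At 36 h, 49 were called higher (25.7% of all genes). At 44 h 49 genes were higher (30.8% of all genes) and at 48 h 48 genes (30.4%). The median log2 difference of the list was 1.15 at 28 h, 3.05 at 36 h, 4.61 at 44 h and 4.39 at 48 h, while the median over all genes tested was 0.00, 0.16, 0.23 and 0.24. At 44 h, every X44 liver was above every C0 liver for 49 of the 50 genes, which held for 33.2% of all genes tested. At 28 h that was so for 26 of the 50 (13.5% of all genes). The mean RPKM at 44 h was 110 times that of C0 for the median gene of the list.

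Some comparisons could be made at the same clock hour. X28 and the unoperated C4 livers were both taken at ZT6, and 43 of the 50 genes were higher in X28 (14.4% of all genes tested), or 27 at a pseudocount of 1. They came from different periods. X44 and X20 were both taken at ZT22, and 49 were higher in X44 (12.9% of all genes).

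**Figure D2:**
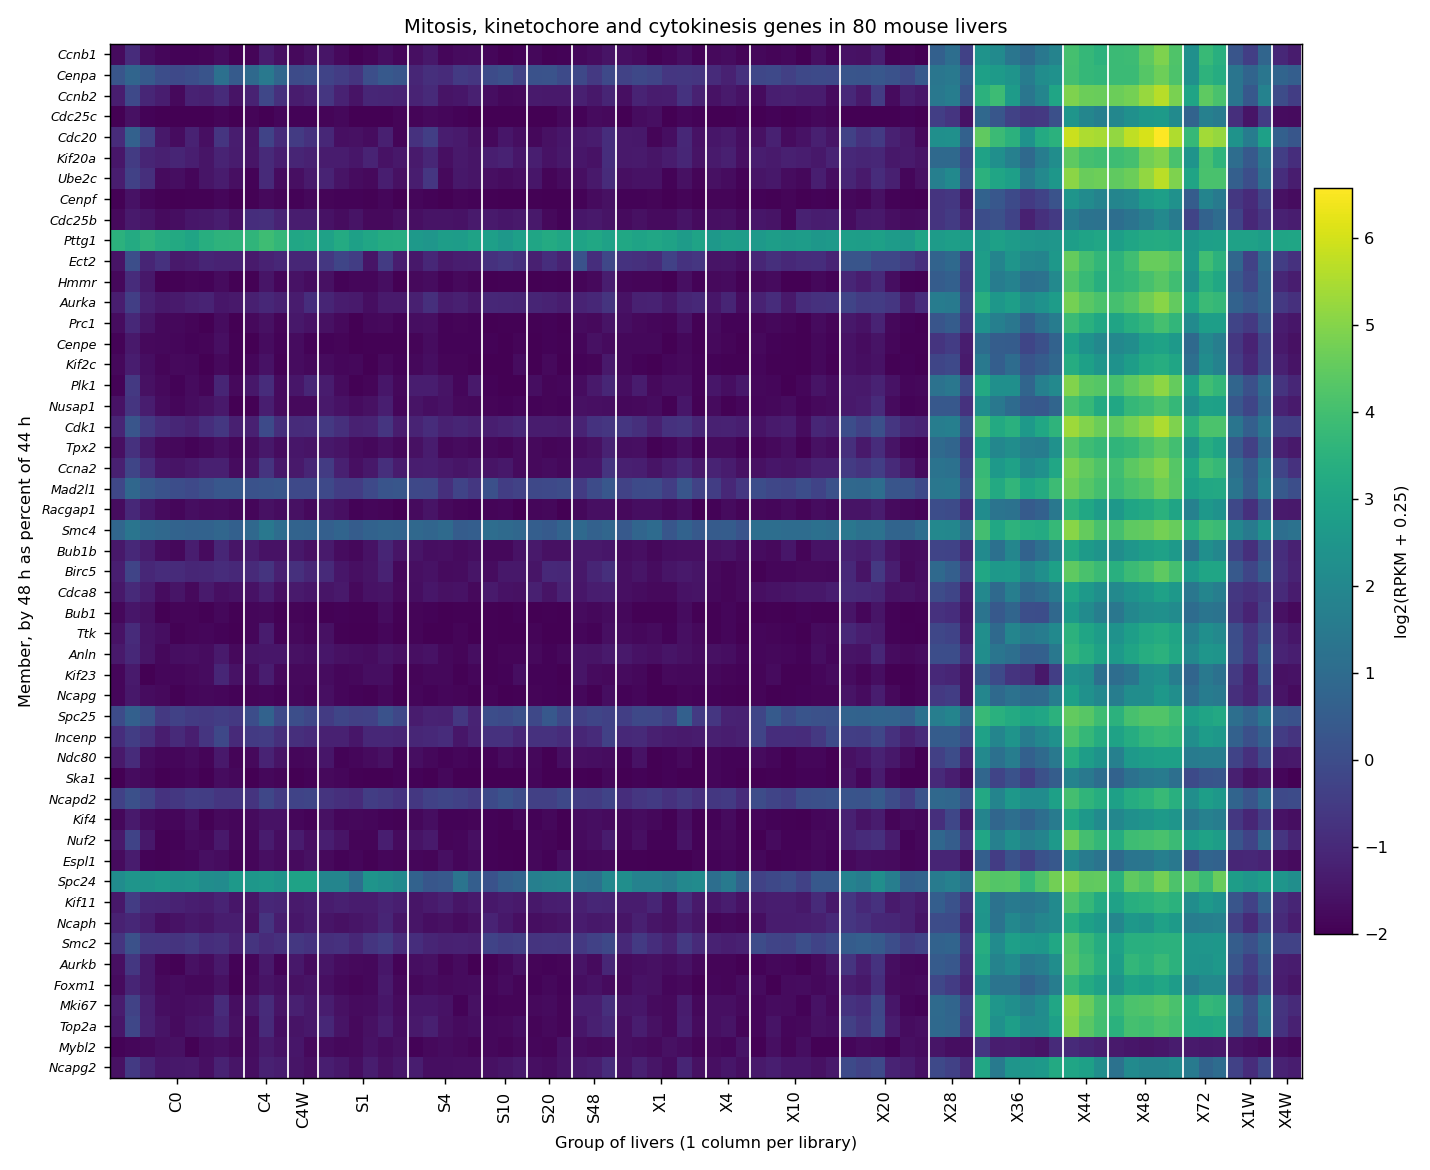
Level of each of the 50 genes (rows) in each of the 80 livers (columns, by group), as log2(RPKM + 0.25), with the rows ordered by the mean level at 48 h as a percent of that at 44 h. The X36 to X72 columns are the brightest for nearly all genes, whereas Pttg1 and Mybl2 keep nearly one colour across the groups.

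At 20 h the values differed between livers and between comparisons. In the pooled fit, 8 genes were called higher in X20 than in S20 (4.49% of all genes tested were), which were Spc25, Cdk1, Top2a, Ect2, Ccna2, Smc2, Ncaph and Ncapg2. The differences were small, from 0.55 ± 0.19 (SE) for Ncaph to 0.92 ± 0.28 for Ect2 on the log2 scale, with adjusted p of 0.0459 and 0.0207. For 10 of the 50 genes, the 6 X20 livers were all above the 3 S20 livers, which held for 10.7% of all genes tested. Against C0, 6 genes (12%) were higher in X20, which is under the share of all genes (16.5%), namely Spc25, Aurka, Ect2, Smc2, Ncapd2 and Ncapg2, and Pttg1 and Spc24 were lower.

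The X20 livers fell into 2 sets by their replicate numbers. The summed level was 28.9, 25.6 and 32.2 RPKM in replicates 1 to 3 and 20.2, 15.4 and 18.8 RPKM in replicates 4 to 6, against 17.9, 19.5 and 18.7 RPKM in the S20 livers. With replicates 1 to 3 alone, 17 genes were higher than in S20, and with replicates 4 to 6 alone 1 gene, Spc25, was. The shares of all genes in these 2 fits are not given here. The X20 livers came from 2 periods, 3 from each, and the S20 livers from the second alone, so that the pooled comparison mixes period with surgery. Whether replicates 1 to 3 and 4 to 6 are the 2 periods is not stated. The 8 calls also fell to 2, 3 and 2 when S20 replicate 1, 2 or 3 was left out, to 3, 5 and 4 without X20 replicate 1, 2 or 3, and to none at a pseudocount of 1.

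The difference between PH and sham surgery was larger at 48 h, where both groups came from the first period. There, 48 of the 50 genes were higher in X48 than in S48 (24.5% of all genes tested), with a median log2 difference of 4.47. The change in that difference between 20 and 48 h was itself called for 48 genes (12.5% of all genes), with a median of 4.13, and for 48 with either set of X20 replicates alone. Mybl2 and Pttg1 were the 2 exceptions to both counts.

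Before 20 h few genes were called. In X4, 7 genes were lower than in C0 (26.9% of all genes tested were), namely Spc25, Birc5, Pttg1, Smc2, Cenpa, Mad2l1 and Spc24. S4 showed 6 of these as lower (22.7% of all genes), Smc2 being the one not called. In X10, Birc5, Cdk1, Pttg1, Cenpa and Spc24 were lower (15.2% of all genes) and Smc2 was higher, while in S10 Birc5, Pttg1 and Spc24 were lower (11.2%). X10 and S10 were taken at ZT12 and C0 at ZT2, with no unoperated livers at ZT12. Hour of day and surgery therefore cannot be told apart in any comparison of X10 or S10 with C0. The shares of the list called lower, 14%, 12%, 10% and 6%, were at or under those of all genes. A gene near 0 in C0 cannot be called lower on this scale, even with no reads left. Foxm1, Ccnb1 and Plk1, with C0 means of 0.0688, 0.0597 and 0.0991 RPKM, are examples. The low shares therefore do not show that such genes kept their level. The counts also depended on the C0 livers. With C0 replicates 1 to 3 alone, 20 genes were lower in X4, 13 in X10, 10 in S4 and 12 in S10. The shares of all genes in those fits are not given here. That subset includes C0 replicate 2, the highest C0 liver for 43 genes of the list. With only replicate 2 left out, 6 genes were lower in X4, 3 in X10, 6 in S4 and 3 in S10. All of these comparisons share the C0 livers.

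PH and sham livers were not told apart at these hours. No gene of the list was called between X1 and S1, X4 and S4 or X10 and S10 by limma, where 0.650%, 8.64% and 7.02% of all genes tested were called in either direction. At an unadjusted p below 0.05 the counts were 0, 0 and 1 of the 50, against 1430, 4031 and 3833 of all 15396 genes tested. In S20 against C0 none was called (12.1% of all genes), with 4 at an unadjusted p below 0.05 (5578 of the 15396 genes). In S48 against C0 Ect2 was higher and Cenpa and Spc24 were lower (8.88% of all genes), and none of these 3 calls was left without S48 replicate 1. A p that misses the threshold does not show that 2 groups are alike.

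Cyclins and their kinase. Cdk1, the kinase that starts mitosis, had the highest mean log2 level of this class. Its level was between 0.176 and 0.941 RPKM in C0, with a median of 0.287 RPKM, and between 5.76 and 15.9 RPKM in X36, with a median of 9.76 RPKM. It was 39.2, 30.7 and 24.6 RPKM in X44 and 21.4, 26.9, 33.3, 46.0 and 30.2 RPKM in X48. The X44 and X48 livers overlapped each other and lay above all X36 livers. The log2 difference between X44 and C0 was 5.78 ± 0.25 (SE, adjusted p = 1.96e-30).

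Ccna2 encodes cyclin A2, the partner of the kinases in S and G2 phase. It was 28.7, 22.7 and 18.1 RPKM in X44 and 15.04, 21.2, 24.6, 30.9 and 19.8 RPKM in X48, against a highest C0 value of 0.607 RPKM. Its mean was highest in X44, whereas the means of the other 5 genes of the class were highest in X48. The difference from C0 at 44 h was 5.75 ± 0.27 on the log2 scale (adjusted p = 3.22e-29).

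Ccnb1 encodes cyclin B1, the main mitotic partner of Cdk1, and lies on chromosome 13 (101548605 to 101556525, NCBIM37). It was chosen for display after its values were seen. Its level ran from 0.0111 to 0.282 RPKM in C0 and from 1.64 to 5.03 RPKM in X36. It was 16.2, 12.8 and 10.999 RPKM in X44, then 14.0, 14.4, 21.7, 29.7 and 18.4 RPKM in X48, and 4.67, 13.5 and 10.3 RPKM in X72. All X44 and X48 livers were above all X36 livers, and 3 of the 5 X48 livers were above every X44 liver. The mean in X48 was 148% of that in X44, the highest such share of the list, with a log2 difference of 0.51 ± 0.25 that was not called (adjusted p = 0.812). The Cdk1-activating phosphatases Cdc25b and Cdc25c and cyclin B2 (Ccnb2) were also higher in mean at 48 h, at 115%, 122% and 129% of X44.

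Transcription factors. Foxm1, a forkhead factor that drives G2 and M genes, was between 0.00853 and 0.208 RPKM in C0. It was 12.9, 9.13 and 7.21 RPKM in X44 and 5.02, 7.59, 6.89, 8.07 and 6.49 RPKM in X48. The highest level was in an X44 liver, and the groups overlapped. The log2 difference between X44 and C0 was 4.95 ± 0.17 (adjusted p = 1.83e-34).

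Mybl2, which encodes B-Myb, stood apart by its low level in every group. It was between 0.00705 and 0.0797 RPKM in C0, between 0.0904 and 0.391 RPKM in X36, and 0.256, 0.216 and 0.171 RPKM in X44. The X44 livers were all above C0, with a log2 difference of 0.65 ± 0.10 (adjusted p = 1.78e-07) that was 0.46 after scaling every library to one median and 0.21 at a pseudocount of 1, and not called in either. It was not called in X28, X48, X72 or X1W. These levels are of few reads, and the 4632 bases of its exons on chromosome 2 shared none with another gene in the annotation used.

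Mitotic kinases. Aurka (Aurora A, which matures centrosomes) was 27.0, 20.8 and 17.5 RPKM in X44 and 16.4, 19.3, 25.8, 33.0 and 22.5 RPKM in X48. In C0 it was between 0.111 and 0.5003 RPKM. The log2 difference at 44 h was 5.66 ± 0.23 (adjusted p = 3.20e-32). Plk1, the Polo-like kinase of mitotic entry, rose from a mean of 4.42 ± 2.53 RPKM (SD, n = 6) in X36 to 23.8 ± 6.18 RPKM (n = 3) in X44, a log2 step of 2.51 ± 0.28 (SE, adjusted p = 1.27e-10).

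Spindle checkpoint. Mad2l1, which holds back anaphase until kinetochores are attached, had the highest level of the 4 checkpoint genes at rest. It was between 0.639 and 1.56 RPKM in C0 and 0.657, 0.638, 0.304, 0.576 and 0.399 RPKM in S4, where the group was called lower. It was between 8.02 and 14.9 RPKM in X36, 24.9, 19.6 and 16.2 RPKM in X44 and 7.00, 8.55 and 8.68 RPKM in X72. The 3 X44 livers were above the X36 livers, and the X72 livers fell back into the X36 range or just under it. The log2 difference from C0 at 44 h was 4.12 ± 0.22 (adjusted p = 1.38e-25), and between X72 and X48 it was -1.20 ± 0.24 (adjusted p = 0.000451). Bub1, Bub1b and Ttk, the checkpoint kinases, reached means of 4.37, 6.68 and 8.52 RPKM in X44.

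Anaphase genes. Cdc20, the activator of the anaphase-promoting complex, had the highest level of the list at its peak, at 59.0, 45.2 and 43.1 RPKM in X44 and 36.3, 54.0, 66.5, 94.7 and 46.2 RPKM in X48. In C0 it was between 0.0539 and 1.31 RPKM. Its mean was 49.1 ± 8.68 RPKM (SD, n = 3) in X44 and 59.6 ± 22.6 RPKM (n = 5) in X48, so that the spread in X48 covered the X44 livers. Ube2c, the ubiquitin-conjugating enzyme of the same complex, went from a C0 mean of 0.162 RPKM to 27.6 RPKM in X44 and 32.8 RPKM in X48.

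Espl1 encodes separase, the protease that opens cohesin rings. It was at most 0.144 RPKM in C0, then 3.97, 2.69 and 2.20 RPKM in X44 and 1.64, 2.24, 2.30, 3.00 and 2.43 RPKM in X48. The log2 difference at 44 h was 3.41 ± 0.14 (adjusted p = 3.20e-32), and at 28 h it was not called.

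Pttg1 encodes securin, the inhibitor of separase, and was the only gene of the list that was called higher in no post-PH group. It lies on chromosome 11 (43233752 to 43239753, NCBIM37), and its exons overlap no other gene there. Its level was already 7.82 to 11.5 RPKM in C0, with a median of 10.1 RPKM, and 11.9, 14.8 and 12.5 RPKM in C4. It was 6.24, 6.78 and 6.41 RPKM in X28, between 5.22 and 7.06 RPKM in X36, 6.79, 7.65 and 8.13 RPKM in X44, and 7.27, 7.17 and 6.53 RPKM in X1W. All X28, X36, X72 and X1W livers were under all 9 C0 livers. The log2 difference was -0.62 ± 0.10 at 28 h (adjusted p = 9.52e-07), -0.41 ± 0.10 at 44 h (adjusted p = 0.000382, not called since it lies within 0.5) and -0.51 ± 0.10 at 1 week (adjusted p = 7.13e-05). Sham livers were lower too, with 6.84, 5.73 and 6.82 RPKM in S10 (log2 difference -0.63 ± 0.10, adjusted p = 6.44e-07) and 5.95, 5.45, 6.53, 6.41 and 7.50 RPKM in S4.

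**Figure D3:**
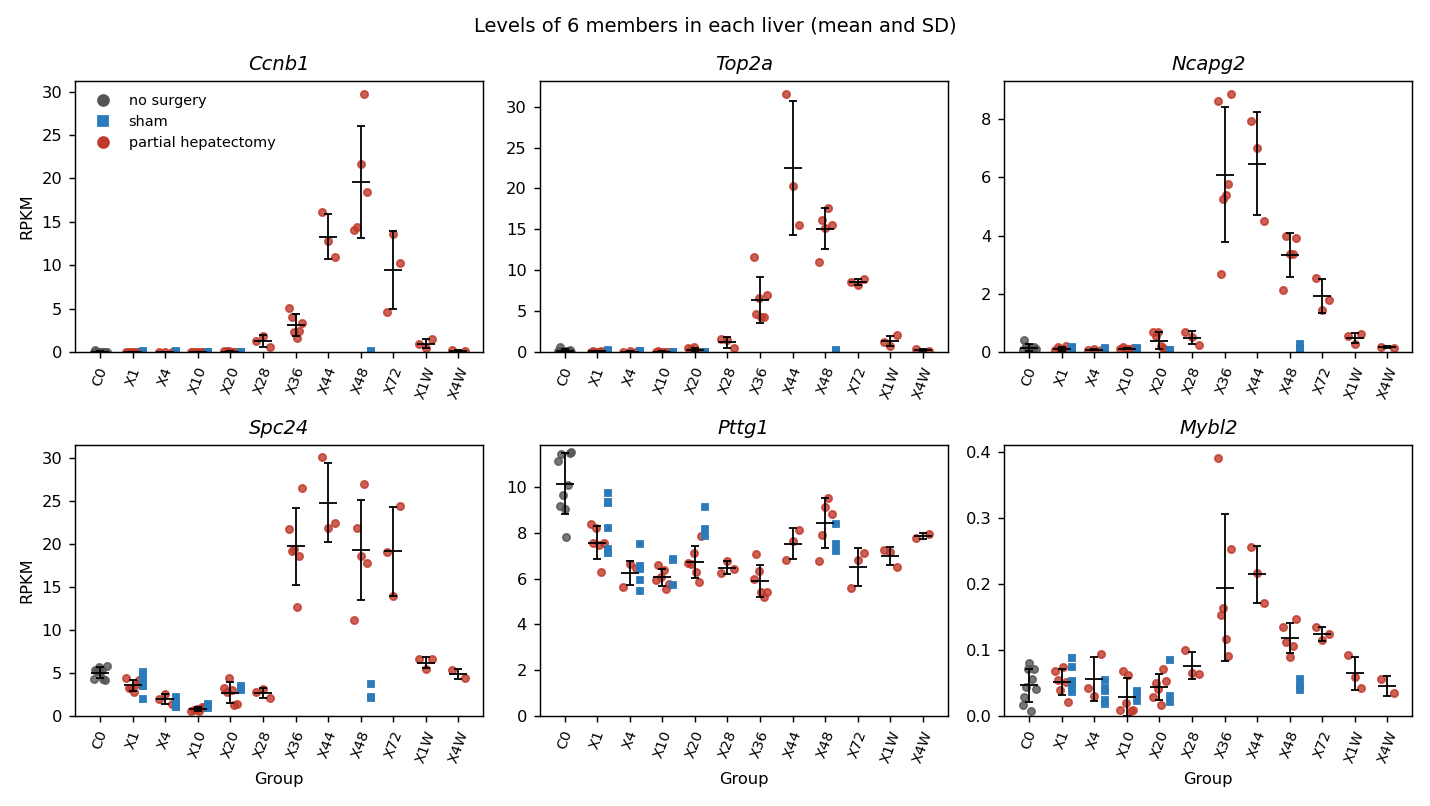
RPKM of Ccnb1, Top2a, Ncapg2, Spc24, Pttg1 and Mybl2 in each liver, over C0 and the post-PH groups (circles, with the mean and SD of each group) and the sham group of the same hour (squares). Ccnb1 has its highest mean in X48 and Top2a in X44, Ncapg2 and Spc24 reach a similar level in X36 and X44, Pttg1 is highest in C0, and Mybl2 stays at or below 0.391 RPKM (vertical axes differ).

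Kinetochore. Spc24 and Spc25 form one end of the Ndc80 complex, which holds the microtubule, and Ndc80 and Nuf2 form the other. Spc24 had the highest mean log2 level of the kinetochore genes and a course of its own. It was between 4.11 and 5.81 RPKM in C0, and 0.863, 1.26 and 1.43 RPKM in S10, and between 0.542 and 1.04 RPKM in X10. The X10 and S10 livers were all under all C0 livers, and the log2 differences from C0 were -2.40 ± 0.18 (adjusted p = 3.44e-18) and -1.88 ± 0.23 (adjusted p = 6.73e-10). No unoperated livers were taken at the hour of X10 and S10. S4 was lower too, at 1.38, 0.981, 1.05, 2.19 and 1.22 RPKM, whereas the C4 livers without surgery had 5.56, 6.04 and 5.19 RPKM at the same hour.

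Spc24 was still low at 28 h, at 2.74, 3.13 and 2.02 RPKM (log2 difference from C0 -0.88 ± 0.23, adjusted p = 0.00155). It then rose to between 12.7 and 26.5 RPKM in X36, to 30.1, 21.8 and 22.5 RPKM in X44, and stayed at 19.1, 14.0 and 24.3 RPKM in X72. The X44 livers were above all C0 livers, by 2.25 ± 0.23 on the log2 scale (adjusted p = 5.55e-13), and the X36, X44 and X72 livers overlapped. The step from X36 to X44 was 0.35 ± 0.25 and was not called (adjusted p = 0.392). The mean in X72 was 99.4% of that in X48, against a median of 51.2% over the list.

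Spc25 did not share the early course of its partner to the same extent. It was between 0.414 and 1.31 RPKM in C0, 0.141, 0.189, 0.184, 0.398 and 0.207 RPKM in S4, and 0.757, 0.693 and 0.823 RPKM in S10. The S4 livers were all below C0 and the S10 livers lay inside its range. In X44 it was 22.6, 20.0 and 14.8 RPKM (log2 difference from C0 4.51 ± 0.21, adjusted p = 2.82e-29).

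Cenpa, the histone H3 variant that marks centromeres, was between 0.670 and 1.99 RPKM in C0 and 0.220, 0.301, 0.268, 0.442 and 0.395 RPKM in S4. It rose to 15.8, 12.8 and 12.1 RPKM in X44 and was 14.1, 14.2, 19.4, 25.6 and 17.9 RPKM in X48. Of the 5 X48 livers, 3 were above every X44 liver. The log2 difference at 44 h from C0 was 3.41 ± 0.22 (adjusted p = 3.72e-22), and that between X48 and X44 was 0.40 ± 0.24 and was not called (adjusted p = 1.00). Cenpe, a kinetochore motor, and Cenpf, a large kinetochore protein, had their highest means in X48 as well. Cenpe was 7.31, 4.95 and 3.76 RPKM in X44 and 3.71, 4.32, 6.68, 7.49 and 5.84 RPKM in X48. Cenpf was 5.32, 4.13 and 3.31 RPKM in X44 and 3.50, 3.81, 6.09, 6.83 and 4.75 RPKM in X48. For both genes the X44 and X48 livers overlapped, and the log2 differences of X44 from C0 were 4.23 ± 0.17 (adjusted p = 4.25e-32) and 4.03 ± 0.17 (adjusted p = 1.53e-31).

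F630043A04Rik, the RefSeq synonym of the kinetochore gene Ska3, was between 0 and 0.191 RPKM in C0 and 6.53, 5.13 and 3.84 RPKM in X44, a log2 difference of 4.25 ± 0.18 (adjusted p = 1.40e-30). Its partner Ska1 went from a mean of 0.0239 RPKM in C0 to 2.55 RPKM in X44.

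Chromosomal passenger complex. Incenp, the scaffold on which Aurora B acts, had the highest mean log2 level of the 4 subunits. It was between 0.149 and 0.650 RPKM in C0, 17.6, 12.8 and 9.57 RPKM in X44 and 7.36, 9.71, 12.2, 13.5 and 12.5 RPKM in X48. The log2 difference at 44 h was 4.56 ± 0.21 (adjusted p = 1.13e-29). Birc5 (survivin) was between 0.160 and 0.590 RPKM in C0 and dropped to 0.0658, 0.0809, 0.0491, 0.0572 and 0.0967 RPKM in S4. In X10 it was at most 0.0380 RPKM, under every C0 liver. It then reached 21.6, 17.0 and 14.1 RPKM in X44 (log2 difference from C0 5.07 ± 0.21, adjusted p = 6.40e-32). Aurkb, the kinase of the complex, and Cdca8 (borealin) had means of 15.1 and 6.21 RPKM in X44. The mean of each of the 4 subunits was highest in X44.

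Spindle genes. Kif11, the motor that pushes spindle poles apart, was between 0.106 and 0.474 RPKM in C0, 18.0, 12.7 and 9.20 RPKM in X44 and 7.19, 10.1, 10.8, 12.4 and 10.95 RPKM in X48. Its difference from C0 at 44 h was 4.87 ± 0.19 on the log2 scale (adjusted p = 3.20e-32). Tpx2, which activates Aurora A on the spindle, was 19.5, 14.6 and 12.9 RPKM in X44 and 11.9, 13.2, 16.9, 20.9 and 15.4 RPKM in X48 (log2 difference of X44 from C0 5.60 ± 0.22, adjusted p = 1.92e-32). For both, the 2 groups overlapped. Nusap1, which bundles spindle microtubules, was late. Its mean in X36 was 15.8% of that in X44, and its step from X36 to X44 was 2.64 ± 0.25 (adjusted p = 3.28e-13), the largest of the list.

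Cytokinesis. Ect2, the exchange factor that activates RhoA for the contractile ring, had the highest mean log2 level of this class. It was between 0.0902 and 0.790 RPKM in C0 and 0.854, 0.300 and 0.644 RPKM in S48. It was 23.1, 15.9 and 12.6 RPKM in X44 and 11.4, 15.3, 23.7, 23.7 and 19.5 RPKM in X48. The S48 livers overlapped C0, and X44 was above all of C0 by 5.15 ± 0.26 on the log2 scale (adjusted p = 1.05e-26). Kif20a, a motor of the spindle midzone, was 21.8, 16.1 and 15.3 RPKM in X44 and 14.9, 16.3, 26.8, 30.9 and 17.0 RPKM in X48. Prc1, which crosslinks midzone microtubules, was 14.0, 10.7 and 8.30 RPKM in X44 and 7.69, 10.2, 12.2, 16.2 and 12.2 RPKM in X48. The means of these 3 genes were highest in X48, with overlap between the groups. Kif23, the motor of centralspindlin, had the lowest share at 36 h of the list, with an X36 mean at 14.2% of that in X44 and a step of 2.40 ± 0.23 (adjusted p = 1.27e-12).

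Chromosome structure. Smc4, a core subunit of both condensins, was between 1.29 and 2.25 RPKM in C0 and 3.73, 3.70 and 1.95 RPKM in X28. It was 32.9, 22.9 and 17.0 RPKM in X44 and 16.2, 21.7, 22.5, 27.0 and 23.7 RPKM in X48 (log2 difference of X44 from C0 3.72 ± 0.17, adjusted p = 5.54e-30). Top2a, the topoisomerase that untangles sister chromatids, and Mki67, the surface protein of mitotic chromosomes, had means of 22.5 and 24.7 RPKM in X44 and 15.1 and 17.2 RPKM in X48. All 8 genes of this class had their highest mean in X44.

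Ncapg2, a subunit of condensin II on chromosome 12 (117643875 to 117702004, NCBIM37), had the highest mean at 36 h relative to 44 h of the list, at 94.2%, and was chosen for display after its values were seen. It was between 2.67 and 8.87 RPKM in X36, with a median of 5.59 RPKM. It was 7.93, 7.00 and 4.502 RPKM in X44, and 2.12, 4.01, 3.35, 3.36 and 3.93 RPKM in X48. The X44 livers lay within the X36 range, and every X48 liver was below every X44 liver. The step from X36 to X44 was 0.14 ± 0.25 (adjusted p = 0.791), and the step from X44 to X48 was -0.89 ± 0.25 and missed the threshold (adjusted p = 0.145). Its exons share bases with D430020J02Rik on the other strand, and the study counted reads by strand.

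The genes differed in the course of their group means between 36 and 48 h, with no test of the order itself. From 28 to 36 h, 47 of the 50 rose (15.1% of all genes tested), all but Mybl2, Pttg1 and Cdc25b. From 36 to 44 h, 46 rose (6.48% of all genes), all but Mybl2, Pttg1, Ncapg2 and Spc24. For 45 genes every X44 liver was above every X36 liver, which held for 9.85% of all genes. The mean at 36 h was between 14.2% and 94.2% of that at 44 h, with a median of 28.8%. By class, this share had a median of 45.2% in the 8 chromosome genes and 26.2% in the 6 cyclin genes, with no test between classes.

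From 44 to 48 h no gene of the list was called by limma (0.240% of all genes tested, either direction). At an unadjusted p below 0.05 there were 6 of the 50, against 905 of all 15396 genes tested. Of the 6, Ccnb1 was higher at 48 h and Foxm1, Mybl2, Espl1, Ncapg2 and Ncaph were lower. The highest mean over all 19 groups was in X44 for 31 genes, in X48 for 18 and in C4 for Pttg1. The class medians of the X48 mean were 118% of X44 for the cyclin genes, 72.8% for the chromosome genes, 83.1% for the kinetochore and 102% for the spindle.

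**Figure D4:**
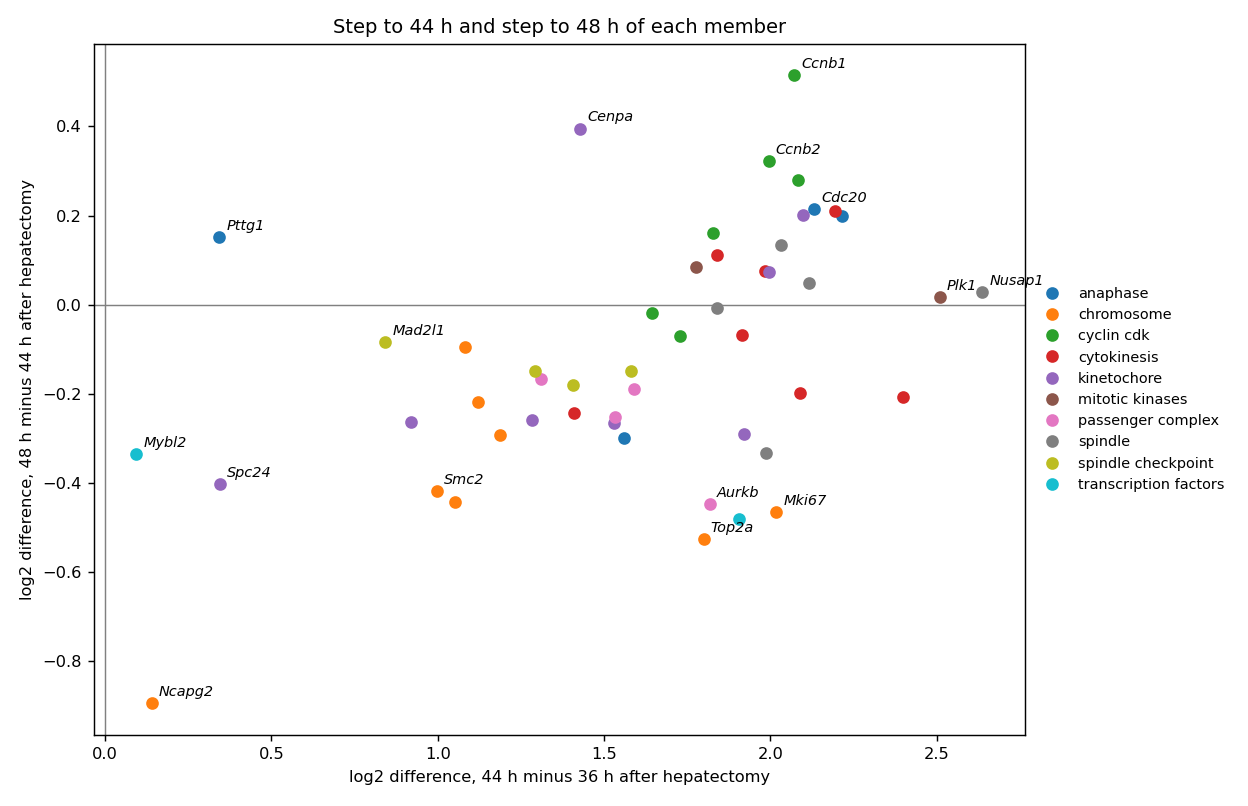
The log2 difference between X44 and X36 (horizontal axis) against that between X48 and X44 (vertical axis) for each of the 50 genes, coloured by class. The axes share the X44 livers, so that the position of a point on one is not independent of the other. Ccnb1 is highest, at 0.51, and Ncapg2 lowest, at -0.89.

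Within a liver, the ratio of 2 genes is not changed by a factor that both share. Ncapg2 relative to Ccnb1, a pair chosen for its difference in timing, is therefore given as a description. The ratio of their RPKM was 1.71, 0.666, 2.28, 3.29, 2.37 and 2.68 in the X36 livers, 0.490, 0.549 and 0.409 in X44, and 0.151, 0.278, 0.155, 0.113 and 0.213 in X48. The 3 groups did not overlap. In X72 the ratio was 0.547, 0.106 and 0.174, and the first of these livers was in the X44 range. X36 replicate 2 had the lowest ratio of its group.

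The same was done with all 8 chromosome genes and all 6 cyclin genes. These classes hold Ncapg2 and Ccnb1 and were picked for their unlike shares at 48 h, so the values describe the same pattern again. The mean log2 level of the former minus that of the latter was 0.71, -0.07, 0.83, 1.28, 1.01 and 0.98 in the X36 livers, 0.21, 0.11 and -0.11 in X44, and -0.59, -0.29, -0.69, -0.80 and -0.35 in X48. In X72 it was 0.26, -0.61 and -0.49. The X48 livers were all under the X44 livers, as the choice of classes favours, and X36 replicate 2 and X72 replicate 1 lay outside the others of their groups.

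**Figure D5:**
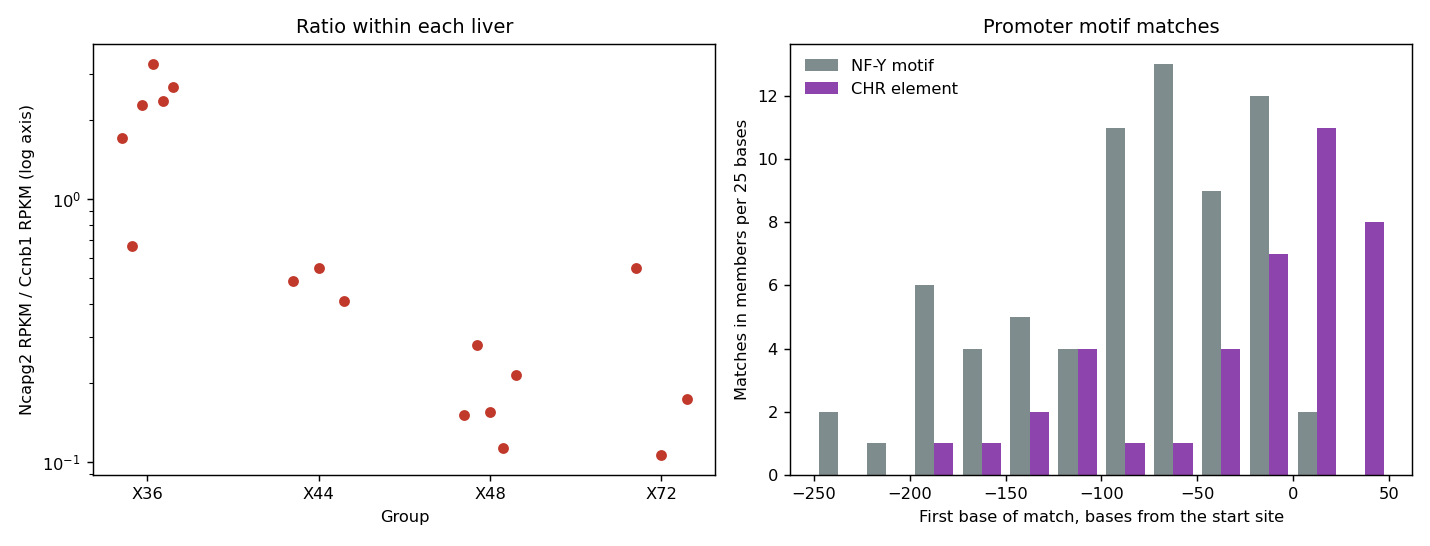
Left, Ncapg2 RPKM divided by Ccnb1 RPKM in each liver of X36, X44, X48 and X72 (log axis). Right, the number of motif matches in the 43 promoter windows per 25 bases, by distance of the first base from the start of transcription. The 5 X48 ratios, from 0.113 to 0.278, lie under the 3 X44 ratios, and CHR matches are most frequent just after the start.

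Genes of DNA replication are given for comparison, with no test of the difference between the lists. Of the 40 tested, 38 were higher than C0 at 36 h (25.7% of all genes tested) and 39 at 44 h (30.8%). Their median log2 difference was 3.00 at 36 h, against 3.05 for the mitotic genes, and 2.66 at 44 h, against 4.61. Between 36 and 44 h, 13 of the 40 fell (3.05% of all genes tested did) and 4 rose (6.48%), among the 13 Mcm2, Mcm3 and Mcm4 of the replicative helicase, Cdc6 and Cdt1 of its loading, and the cyclin E genes Ccne1 and Ccne2. At 20 h, 19 of the 40 were higher in X20 than in S20, and 8 of the 50 mitotic genes were, where 4.49% of all genes tested were. As stated above, that comparison mixes period with surgery. The summed level of the replication genes ran from 43.1 to 102 RPKM over the X20 livers. How far the 19 calls depend on the choice of X20 livers is not given here.

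The list of 80 other mitotic genes, none of them among the 50, was taken as the wider pathway. Of its 79 tested genes, 48 were higher than C0 at 28 h, 75 at 36 h, 78 at 44 h, 75 at 72 h and 45 at 1 week. The shares of all genes tested were 13.6%, 25.7%, 30.8%, 26.6% and 12.4% in that order. The 3 largest log2 differences at 44 h were those of Pbk, a mitotic kinase (6.38), and of the spindle proteins Ckap2l (5.93) and Ckap2 (5.65). The 3 smallest were Stag2 (-0.16, not called), Fam64a (0.69) and Smc3 (0.74), of which Stag2 and Smc3 belong to cohesin. At 28 h Pmf1, a kinetochore gene, was lower than in C0 (-0.80 ± 0.20, adjusted p = 0.000839), and between 36 and 44 h Wee1, the kinase that restrains Cdk1, fell.

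After 48 h most of the mitotic genes were lower, with no value at 60 h to show the course between. Between 48 and 72 h, 41 of the 50 fell (3.73% of all genes tested), and none rose. The 9 not called were Cdc20, Mybl2, Pttg1, Top2a, Ect2, Mki67, Kif23, Ncapg2 and Spc24. The mean at 72 h was between 41.5% and 106% of that at 48 h, with a median of 51.2%. For 40 genes every X72 liver was below every X48 liver, which held for 11.2% of all genes. The count fell to 22 without X72 replicate 1 and to 8 when X48 and X72 were fitted without the other groups. Against C0, 48 genes were still higher at 72 h (26.6% of all genes), with a median log2 difference of 3.42.

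At 1 week, 46 of the 50 were higher than in C0 (12.4% of all genes tested), with a median log2 difference of 1.28 where that over all genes was 0.12. From 72 h to 1 week, 48 fell (12.2% of all genes). For 41 genes every X1W liver was above every C0 liver, which held for 13.7% of all genes. The largest difference was that of Cdc20, at 5.03, 2.75 and 7.03 RPKM in X1W against at most 1.31 RPKM in C0, or 3.24 ± 0.34 on the log2 scale (adjusted p = 2.14e-10). Plk1 was at 1.48, 0.816 and 1.72 RPKM (2.21 ± 0.26, adjusted p = 3.09e-09), above its highest C0 value of 0.421 RPKM. Ccnb1 was at 0.939, 0.494 and 1.47 RPKM (1.93 ± 0.23, adjusted p = 2.90e-09). Mybl2 (0.09 ± 0.10), Ska1 (0.45 ± 0.15) and Spc24 (0.30 ± 0.23) were not called, and Pttg1 was lower. The mean at 1 week was 7.46% of that at 44 h for the median gene.

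Some markers of other cells were called higher at 1 week as well. Of the tested markers, 3 of 8 of macrophages, 2 of 5 of erythroid cells and 2 of 8 of endothelial cells were higher in X1W than in C0. Of all genes tested, 12.4% were. Markers of neutrophils, lymphocytes, stellate cells and cholangiocytes are not counted here for 1 week. The summed level of the 7 erythroid genes measured was 90.6, 94.8 and 86.2 RPKM in X1W, against 33.9 to 60.8 RPKM in 8 of the C0 livers and 99.8 RPKM in C0 replicate 2. All X1W livers were thus above those 8. The unoperated C4 livers had 67.4 to 99.8 RPKM, a range that covers the X1W livers. The X1W liver with the lowest summed level of the mitotic genes, replicate 2 at 43.8 RPKM, had the highest erythroid sum. The macrophage sum was 39.6 to 87.3 RPKM, against 9.71 to 153 RPKM in C0. At 44 h none of the 8 endothelial markers, 2 of the 8 macrophage markers and 2 of the 8 stellate markers were higher than in C0. That held for 30.8% of all genes tested. The hepatocyte sum was 33444 to 48083 RPKM in X44, against 50352 to 60619 RPKM in C0. The part of these cells in the levels of the mitotic genes was not tested.

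At 4 weeks most of the genes had a higher mean log2 level than in mice without surgery, with 2 livers in each group. No gene was called between X4W and C4W by limma (0.0650% of all genes, either direction), with 3 of the 50 at an unadjusted p below 0.05. The 2 livers of X4W were above the 2 of C4W for 41 of the 50, which held for 25.6% of all genes tested. The log2 difference was positive for 45, with a median of 0.34, and that of Cdc20 was the largest, at 1.13 ± 0.52 (adjusted p = 1.00). The summed level was 31.0 and 26.5 RPKM in X4W and 24.98 and 25.2 RPKM in C4W. Pttg1 and Spc24 made up a large part of these sums. Their means were 7.86 and 4.87 RPKM in X4W and 8.53 and 7.42 RPKM in C4W, lower in X4W for both.

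Livers of 1 group differed from each other in the whole list at once. X28 replicate 3 was the lowest of its group for 49 of the 50 genes. X44 replicate 1 was the highest of its group for 49 genes, X48 replicate 1 the lowest for 49 and X48 replicate 4 the highest for 46. In X1W, replicate 2 was the lowest for 47 genes, and in X36 replicate 1 was the highest for 45. At 28 h, 46 genes were higher than in C0 without replicate 3, against 45 with it.

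At rest, C0 replicate 2 was the highest of the 9 livers for 43 of the 50 genes, with a summed level of 37.9 RPKM. That liver also had the highest sum of the erythroid markers, at 99.8 RPKM against 33.9 to 60.8 RPKM in the others. Its neutrophil sum of 1.45 RPKM was within the range of the others. Without it, 46 genes were higher than C0 at 28 h, 49 at 44 h and 46 at 1 week.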

How the data were processed

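Poly(A) RNA from individual livers had been sequenced on a strand-specific protocol. According to the study's methods and the submitters' processing notes, the authors trimmed reads, removed those of low complexity, mapped the rest to the mouse genome mm9 (NCBIM37) with TopHat2 2.0.13 and Bowtie2, handled alignments with SAMtools 0.1.19, counted reads by strand over Ensembl genes with featureCounts, splitting multi-mapping reads among their positions, and deposited log2 RPKM values. The file was deposited as log2 values without raw counts, so that no count model was fitted, and depth was estimated from the steps between low values. The share of low values within 0.05 of a whole read was 76.2% in the median library. It was lowest in X28 replicate 2, at 37.2%, so that the depth of that library is less sure. Of 87 labelled samples, 80 matched a column by name, 7 were not analysed here, and 4 columns matching no sample were not used.

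Values were returned to RPKM, a pseudocount of 0.25 was added, and genes with log2 RPKM above -1.5 in at least 1 library were kept. limma 3.58.1 (R 4.3.3) fitted all 19 groups in 1 model with an intensity trend, and p-values were two-sided and adjusted by Benjamini-Hochberg. They measure the spread between livers, and the labels give no day of surgery. The scripts were tested on simulated data. Figures were drawn with matplotlib 3.10.9.

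The members, gene lists and comparisons were chosen with earlier results of these data known. Values per liver are given for the gene with the highest mean log2 level of each class, and for genes that peaked apart from their class, were not called higher at 44 or 48 h, or were called in a sham group. The rule also named genes called at 1 week, which took in 47 of the 50, and those are given by counts, ranges and the heat map. Ccnb1 and Ncapg2 were added after their values were seen, and Cdc20 and Plk1 are shown as the largest examples. Of the wider list of mitotic genes, the 3 largest and 3 smallest differences at 44 h and those that fell are named. Other pseudocounts, filters, scaling, subsets of C0, X20 and X36, a replicate term, fits of 2 groups alone and omission of each liver were tried.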

Additional observations from a re-analysis of the deposited data

Results flagged for a closer look

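C0 replicate 2 lay far above the other 8 livers at rest. Its summed level of the 50 genes was 37.9 RPKM, and its gap to the next liver, relative to the range of the group, was beyond the 95% limit of Dixon's test. The same held for single genes of nearly every class. In that liver Smc4 was at 2.25 RPKM, Mad2l1 at 1.56, Cdk1 at 0.941, Ect2 at 0.790, Aurka at 0.5003 and Kif11 at 0.474 RPKM. Espl1 was at 0.144 RPKM, Ccna2 at 0.607, Kif20a at 0.460, Prc1 at 0.244, Cenpf at 0.0870 and Tpx2 at 0.337 RPKM. Birc5 was at 0.590 RPKM, Ccnb1 at 0.282 and Ncapg2 at 0.430 RPKM. The erythroid sum of that liver, 99.8 RPKM, was also the highest of C0, and its part in these levels was not tested.

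In X20, Spc25 was at 2.01 RPKM in replicate 6, above the other 5 livers, although that liver was among the lowest of the group for the summed level. In all, 17 of 96 groups of values were marked in this way, where chance marks about 1 in 20. The 16 values of C0 replicate 2 are of 1 liver and are not independent.

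The difference between PH and sham surgery was larger at 48 h than at 20 h for 48 of the 50 genes, by limma's test of the difference itself.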

How the results depend on the processing

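The counts of called genes were recomputed under 560 combinations of a comparison and an alternative, and 498 were within 1.5 times the count reported. Counts here add higher and lower calls. A stricter filter, on the mean over all libraries, kept only 17 of the 50 genes, so fewer could be called: 17 at 28, 36 and 72 h against C0, 16 at 44 h, 48 h and 1 week, 1 in S20, 5 between X20 and S20, 15 between X44 and X36, 14 between X72 and X48, and 16 in each of X48 against S48, X36 against X28, X1W against X72, X28 against C4, X44 against X20 and the change of the PH effect between 20 and 48 h. A pseudocount of 0.1 gave 12 in X4, 9 in S10 and 2 in S20. A pseudocount of 1 gave 31 in X28 against C0, 29 against C4, 3 in each of X4, X20 and S4, 2 in X10, 1 in S48, 0 between X20 and S20 and 1 between X48 and X44. Scaling to one median gave 5 in X20, 6 in S10 and 2 in S20. Without a filter, 5 were called between X20 and S20. Groups fitted alone gave 1 in S20, 1 in S48, 1 between X20 and S20 and 8 between X72 and X48. With C0 replicates 1 to 3 alone, 20 were called in X4, 13 in X10, 4 in X20, 10 in S4, 12 in S10 and 4 in S20. With C0 replicates 4 to 6 there was 1 in S48, and with replicates 7 to 9 there were 6 in S10 and 5 in S48. X20 replicates 1 to 3 alone gave 18 against C0 and 17 against S20, and replicates 4 to 6 gave 4 and 1. The cause of these shifts was not tested.

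Leaving out 1 liver gave 0 to 3 calls in S48, 2 to 4 in S10, 4 to 7 in X10, 2 to 10 between X20 and S20, 22 to 45 between X72 and X48 and 0 to 1 between X48 and X44. The ranges were 44 to 48 at 28 h and at 1 week, 49 to 50 at 36 h, and 49 and 48 at 44 and 48 h whichever liver was left out. A replicate block gave 6 calls in S10, 1 in S20 and 1 in S48, and moved no other count by over 1.5 times. Deviations of same-numbered livers correlated above 0.1 in every pair of no comparison with 3 or more pairs, so that the numbers were not taken to pair the livers. The step of Ncapg2 from X36 to X44 changed sign, to -0.047 with X36 replicates 4 to 6 alone, ran from -0.065 without X36 replicate 2 to 0.37 without X44 replicate 3 as single livers were left out, and was called in none of these. Depth limits the genes below 0.1 RPKM, such as Mybl2 and Cenpf at rest.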
